A study of Homo sapiens with 34 samples.

Results

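LNCaP is a human prostate cancer line from a lymph node metastasis. The question addressed here was whether the effect of a calcium phosphate surface on its gene expression depended on the hormones in the serum. The quantity measured was the surface by serum interaction, the log2 effect of the surface in stripped serum minus the log2 effect in control medium. It rests on 8 of the 34 poly(A)-selected RNA libraries of the study, chosen by their labels as the 4 LNCaP groups of 2 libraries that cross both factors. The study grew 4 prostate lines on tissue culture plastic or on plates with a coat of amorphous calcium phosphate (ACP), which serves as a model of mineralized bone, with or without androgen.

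The 4 groups are called plastic control, ACP control, plastic stripped and ACP stripped. Control medium was RPMI with 10% fetal bovine serum and added glucose, HEPES and sodium pyruvate. Stripped medium held serum treated with charcoal and dextran, which removes steroid hormones along with other small lipophilic molecules. ACP control, plastic stripped and ACP stripped were labelled day 4. Plastic control was labelled continuous culture, although the treatment protocol describes the same passage and 4 days for it. The last LNCaP group, ACP androgen, had ACP, stripped serum and an androgen that the titles name DHT and the treatment labels testosterone. It entered the fit for the estimate of the spread, and its levels are given beside those of the 4 groups. No plastic group with added androgen was analysed here. The labels do not say whether 2 libraries of a group came from separate cultures, so the p-values measure the spread between these libraries, which may be technical.

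Androgens act through a nuclear receptor that binds DNA once it holds its hormone, and charcoal-stripped serum is the usual way to withdraw them from cultured prostate cells. The kallikreins KLK3 (prostate-specific antigen), KLK2 and KLK4 are secreted or epithelial serine proteases whose transcription in luminal prostate cells depends on that receptor. A positive interaction can arise in more than 1 way, from a fall on plastic in stripped serum that is smaller or absent on ACP, or from a rise on ACP in stripped serum alone, so the 4 group levels are given for the genes described.

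The 8 libraries held 17.1 M to 44.8 M counted reads, with plastic stripped replicate 2 the shallowest and plastic control the deepest. Levels are given in CPM, a gene's reads per M reads of its library, after TMM scaling, a library-size correction based on the bulk of genes. All 11 luminal prostate markers were read in each of the 8 libraries, KLK3 at 135 CPM or more and the keratins KRT8 and KRT18 at 449 CPM or more. The plastic control libraries stood apart from all other LNCaP libraries in some transcripts foreign to prostate cells, but not in all. FGG, a liver gene, was at 2.46 and 2.59 CPM there and no higher than 0.034 CPM elsewhere, and CD74, an immune gene, was at 10.4 and 10.6 CPM against 1.49 or less. The summed level of 20 liver transcripts was 44.7 and 52.4 CPM in plastic control, where none was at 0, and 15 to 58.3 CPM in the other 6 libraries of the interaction, where 6 to 11 of them were at 0. CPS1, a member of that list and a called gene, made up most of the sum outside plastic control. Its levels were 10.6 and 12 CPM in ACP control, 16.8 and 19.3 in plastic stripped, and 46.3 and 53.5 in ACP stripped. In plastic control it was at 18.1 and 20.7 CPM, less of the sum. Summed over 20 genes, lymphoid and myeloid transcripts were at 427 and 404 CPM in plastic control and at 412 and 518 CPM in ACP control. COL1A1, a fibroblast gene, was at 22.5 and 18.5 CPM in plastic control and higher in plastic stripped, at 30.3 and 26.4 CPM. RNAs that lack a poly(A) tail summed to 3.43 and 3.45 CPM in plastic control and to 11.2 to 186 CPM in the other 6 libraries, highest in ACP control replicate 1. The culture label, these signs and the group cannot be told apart for plastic control. A gene is called marked below where, in at least 2 of the 3 other lines, both plastic control libraries lay above or below every other library of that line. Bulk RNA cannot tell fewer cells of a type from less RNA per cell.

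The interaction passed the threshold for 45 of 14656 genes tested (0.307%), of which 44 were higher (0.3%) and 1, RBMXL2, lower (0.00682%). The test was edgeR's quasi-likelihood F test with a Benjamini-Hochberg adjusted p below 0.05 over all genes. At an unadjusted p below 0.05 there were 1276 genes (8.71%), 808 higher (5.51%) and 468 lower (3.19%), and the median interaction of all genes was -0.02. For most of the called genes ACP made a difference in stripped serum and little in control medium. Among the 44, ACP was called higher than plastic in stripped serum and not called in control medium for 34, and higher in stripped serum but lower in control medium for 8. The remaining genes were DNAJC12, higher on ACP in both media, and C3, lower on ACP in control medium and not called in stripped serum. Over all genes the surface effect was called for 6.12% in stripped serum (4.32% higher and 1.8% lower) and for 12.6% in control medium (6.74% higher and 5.85% lower). These simple effects use the same libraries as the interaction and describe its calls rather than adding evidence for them. Of the 633 genes higher on ACP in stripped serum, 43 (6.79%) were also called in the interaction. In simulated counts the test recovered 1.5% of interactions of 1 log2 unit, 77.5% of those of 2 and 89% of those of 3, so smaller interactions were mostly not detectable with 2 libraries per group. Plastic stripped replicate 1 carried the most weight: without it, 11 of the 45 remained called, among them KLK3, KLK4, CENPN, CD55, NFKBIZ and DSCAM-AS1.

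**Figure D1:**
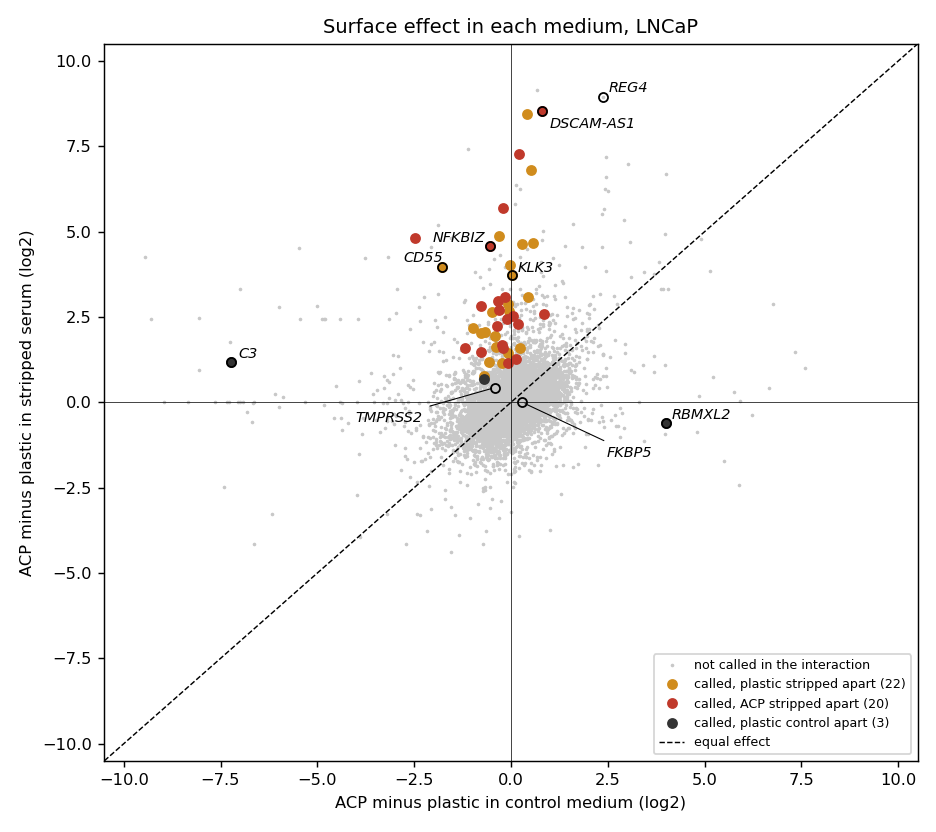
Log2 difference of ACP minus plastic in control medium (x axis) and in stripped serum (y axis) for each gene tested in LNCaP, with genes called in the interaction coloured by the group whose mean lay farthest from the other 3. Most coloured points lie near 0 on the x axis and above 1 on the y axis, while the TMPRSS2 and FKBP5 points, not called, lie near the centre. Far left and right points in grey are genes read at or near 0 in a group.

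The called genes fell into 3 patterns, read from the group whose mean log2 CPM lay farthest from the mean of the other 3. In 22 genes that group was plastic stripped, always lowest. In 20 it was ACP stripped, always highest. In 3 it was plastic control. The libraries of the group that stood apart did not overlap the other 6 in any of the 45, against 57.6% of all genes tested, and nothing is read from that share because the interaction itself selects for it.

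In the first pattern, stripping lowered the genes on plastic and lowered them less, or not at all, on ACP. All 22 were called lower by stripping on plastic, with a median log2 change of -3.28. The choice of the pattern largely fixes that count, so it describes the pattern and adds no evidence. On ACP 5 were called lower, 5 higher and 12 not called, with a median of 0.34. Over all genes stripping was called for 9.45% on plastic (4.61% higher, 4.84% lower) and for 5.37% on ACP (3.28% higher, 2.09% lower). In stripped serum plastic kept a median of 10.6% of its control level, and ACP a median of 126% of its own. The members include the 3 kallikreins, the prostate surface and transport genes SLC45A3 and ABCC4, the secretory-pathway genes AGR2, GALNT7 and ST6GALNAC1, the kinetochore gene CENPN and the complement inhibitor CD55.

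KLK3 showed the pattern at the highest level. It was at 2886 and 2887 CPM on plastic in control medium, 2369 and 3496 CPM on ACP in control medium, 137 and 136 CPM on plastic in stripped serum, and 1664 and 1937 CPM on ACP in stripped serum. The ACP control libraries lay on either side of the plastic control libraries, while in stripped serum both ACP libraries lay far above both plastic libraries. ACP over plastic was 13.2-fold in stripped serum (log2 3.73 ± 0.19 SE) and 1.02-fold in control medium (log2 0.02 ± 0.17). The interaction was 3.70 ± 0.25 SE (edgeR adjusted p = 1.71e-04), and with each of the 8 libraries left out in turn it ran from 3.45 to 4.01 and was called each time. Stripping left 4.72% of the control level on plastic and 61.4% on ACP, the second fall also being called. With androgen on ACP the 2 libraries were at 3506 and 3753 CPM.

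KLK2, a close paralog of KLK3 in the same cluster, followed it at a lower level. It was at 91.1 and 110 CPM in plastic control, 91.1 and 103 in ACP control, 7.13 and 8.32 in plastic stripped, and 49.9 and 48.8 in ACP stripped. Its interaction was 2.74 ± 0.34 (edgeR adjusted p = 0.00469). The call was lost without plastic stripped replicate 1 (adjusted p = 0.0711) and in the fit of all 34 libraries, with interactions of 2.59 to 2.86 in the fits without a library. Reads that match both paralogs can be split or dropped by the authors' counting, so the KLK2 level is uncertain where the sequences are alike. KLK4, whose product also acts in enamel formation, was at 206 and 211 CPM in plastic control, 106 and 139 in ACP control, 46.6 and 38.8 in plastic stripped, and 188 and 163 in ACP stripped. It was thus lower on ACP than on plastic in control medium (log2 -0.77 ± 0.19) and higher on ACP in stripped serum (log2 2.03 ± 0.19), and its interaction was 2.80 ± 0.27 (adjusted p = 0.00116).

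KLK3 and KLK2 lie next to each other on chromosome 19, and the 250 bases before their starts are shown because both hold a 14-base run that is part, but not the whole, of the known proximal androgen response element of the KLK3 promoter. The sequences are RefSeq's (GRCh38.p14, plus strand, chr19:50854665-50854914 for KLK3 and chr19:50873189-50873438 for KLK2), a later build than the hg19 of the authors' counts, with the run GAACAGCAAGTGCT in capitals.
KLK3: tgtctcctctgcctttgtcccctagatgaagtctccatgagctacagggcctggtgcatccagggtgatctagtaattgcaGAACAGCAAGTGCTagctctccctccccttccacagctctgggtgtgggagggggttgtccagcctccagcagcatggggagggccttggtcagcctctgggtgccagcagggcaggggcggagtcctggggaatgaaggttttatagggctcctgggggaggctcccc
KLK2: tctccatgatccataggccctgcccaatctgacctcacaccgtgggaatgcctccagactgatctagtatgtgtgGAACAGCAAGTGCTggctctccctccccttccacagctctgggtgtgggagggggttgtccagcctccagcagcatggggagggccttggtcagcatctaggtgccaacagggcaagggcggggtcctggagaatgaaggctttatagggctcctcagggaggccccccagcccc
The run spans positions -169 to -156 before the start in KLK3 and -175 to -162 in KLK2. Searched on both strands in the same 250 bases of 35116 RefSeq promoter windows, it was in 2 windows, these 2. The run was picked as the longest stretch holding GAACA that both windows share. Its presence in these 2 was thus fixed in advance, and nothing is read from the count. The windows share a run of 80 bases, so the match is part of a wider likeness of both promoters. The shorter half-site AGAACA, or TGTTCT on the other strand, was in 12.4% of all windows and in 5 of the 57 windows (8.77%) of the 31 interaction genes that had one, of the 44 called higher. A match describes letters in these windows only, and no binding was measured.

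**Figure D2:**
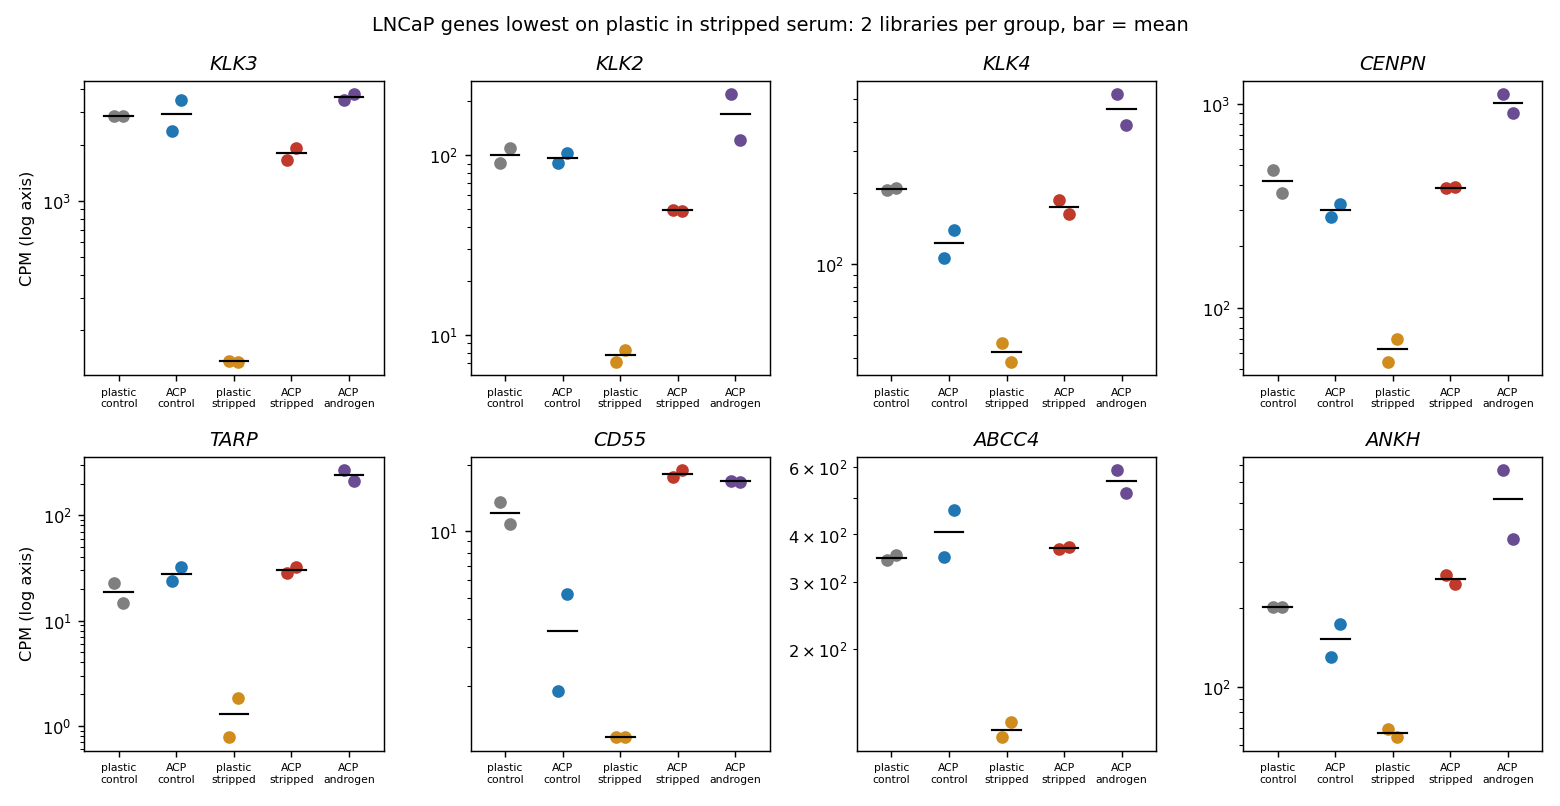
CPM (log axis) of 8 genes with plastic stripped lowest, in each LNCaP library by group; points are libraries, bars the mean of 2. In each panel both plastic stripped points lie below every other point, and the ACP stripped points lie within the range of, or above, the ACP control points except in KLK3 and KLK2, where they lie between.

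CENPN encodes a centromere protein and is also on the list of androgen-induced genes used here. It was at 475 and 366 CPM in plastic control, 278 and 324 in ACP control, 54.5 and 70.5 in plastic stripped, and 387 and 389 in ACP stripped. Stripping thus took plastic to 14.9% of its control level while ACP stood at 129% of its own, and the interaction was 3.12 ± 0.26 (adjusted p = 4.85e-04). CENPN is not on the mitosis list, in which no gene was called. SLC45A3, which encodes the prostate antigen prostein, was at 514 and 406 CPM in plastic control, 305 and 260 in ACP control, 37.2 and 46.7 in plastic stripped, and 71.6 and 72.1 in ACP stripped. It fell by stripping on both surfaces and was 1.72-fold higher on ACP in stripped serum, with an interaction of 1.48 ± 0.23 (adjusted p = 0.0233). ABCC4, an efflux transporter of cyclic nucleotides and drugs, was at 342 and 354, 349 and 464, 118 and 129, and 367 and 372 CPM in the same order. The ABCC4 interaction of 1.36 ± 0.22 (adjusted p = 0.0293) was called in 1 of the 8 fits without a library. That of SLC45A3 was called in 4 of them and lost in the fit of all 34 libraries.

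CD55, a membrane protein that stops complement on the cell's own surface, had a crossing pattern. It was at 13.5 and 10.8 CPM in plastic control, 1.90 and 5.20 in ACP control, 1.17 and 1.17 in plastic stripped, and 17.6 and 18.9 in ACP stripped. ACP was therefore below plastic in control medium (log2 -1.77 ± 0.35) and above it in stripped serum (log2 3.96 ± 0.39), with no overlap in either medium and an interaction of 5.73 ± 0.52 (adjusted p = 9.06e-04). S100P, a small calcium-binding protein, went from 2.00 and 2.34 CPM in plastic stripped to 324 and 160 in ACP stripped, with 30.8 and 30.3 in plastic control. Its ACP control libraries, at 13.2 and 74.3, lay on either side of plastic control. The S100P interaction was 6.30 ± 0.91 (adjusted p = 0.0125), was lost without either plastic stripped library, and S100P carries the plastic control mark in the other lines, in the low direction.

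AGR2, a disulfide isomerase of the endoplasmic reticulum in mucus-secreting epithelia, was at 12.5 and 9.48 CPM in plastic control, 12.3 and 14.5 in ACP control, 0.963 and 1.28 in plastic stripped, and 20.5 and 34 in ACP stripped. Its interaction was 4.36 ± 0.54 (adjusted p = 0.00469; 0.116 without plastic stripped replicate 1). TARP, a transcript made in prostate cells from the T cell receptor gamma locus, was at 22.9 and 14.5, 23.8 and 32.0, 0.781 and 1.84, and 28.0 and 32.1 CPM in that order, with an interaction of 4.09 ± 0.46 (adjusted p = 0.00312). TARP thus held its control level on ACP and fell 15.8-fold on plastic. With androgen on ACP it reached 268 and 213 CPM, and AGR2 140 and 66.2. ANKH, which exports ATP and pyrophosphate and so limits mineral deposition, was at 202 and 202, 130 and 173, 69.5 and 64.4, and 268 and 247 CPM. ANKH was the only called gene among the 28 tested genes on the list of calcium and phosphate handling (0.307% of all genes were called). KL, described below, was called too but is not on that list. Its interaction was 2.35 ± 0.34 (edgeR adjusted p = 0.0125), and the call was lost whichever library of the 2 stripped groups was left out.

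The other genes of the pattern lay between interactions of 1.36 and 8.01. SDR9C7, a lipid dehydrogenase of the epidermis, had no read in either plastic stripped library and 77 in the ACP stripped libraries, at least 26.2-fold higher against 3 reads over the group. Klotho (KL), a co-receptor for a phosphate-regulating hormone, rose from 0.208 and 0.446 CPM in plastic stripped to 4.59 and 5.16 in ACP stripped, with 2.07 and 1.43 in plastic control. The cyclic AMP phosphodiesterase PDE4B (5.20 ± 0.79), the sialyltransferase ST6GALNAC1 (2.96 ± 0.33), the BMP receptor BMPR1B (2.73 ± 0.38), the mucin-type glycosyltransferase GALNT7 (2.00 ± 0.26), the nucleotidase ENTPD5 (1.76 ± 0.21) and the leucine catabolism enzyme MCCC2 (1.39 ± 0.19) were lowest in plastic stripped as well. So were ANK1 (2.65 ± 0.40) and LAT2 (3.14 ± 0.53), a membrane skeleton adaptor and an adaptor of immune receptors. The highest of the 4 groups differed among these 8: it was ACP stripped in PDE4B, ENTPD5, MCCC2 and ANK1, and plastic control in ST6GALNAC1, BMPR1B, GALNT7 and LAT2. Of the 8 fits without a library, ENTPD5 and GALNT7 were called in all, BMPR1B in 6, MCCC2 in 4, PDE4B and ANK1 in 3, and LAT2 and SDR9C7 in 2. KL and ST6GALNAC1 were lost without plastic stripped replicate 1 alone (adjusted p up to 0.0666).

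The androgen-induced genes were examined as a list of 55, all of them tested. In the interaction 6 were called higher and none lower (0.3% and 0.00682% of all genes), namely KLK3, CENPN, KLK4, KLK2, SLC45A3 and ABCC4. The median of the list was 0.44, with 40 of 55 above 0, beside -0.02 for all genes. LRIG1, a brake on growth factor receptors, had an interaction of 0.99 ± 0.18 that did not pass (adjusted p = 0.059). By serum, 36 of the 55 were called lower by stripping on plastic and 18 on ACP, all 18 of which were among the 36. Over all genes the shares called lower were 4.84% on plastic and 2.09% on ACP. The median change was -1.14 on plastic and -0.70 on ACP. Of all genes called lower on plastic, 30.3% were also called lower on ACP. Among the 18 genes of the list lower on plastic and not called on ACP, 3 were called in the interaction (CENPN, KLK4 and ABCC4), so for the other 15 a difference between surfaces was not shown.

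Other receptor targets fell on both surfaces. TMPRSS2, a surface protease, was at 1066 and 1037 CPM in plastic control and 546 and 1039 in ACP control. It was at 162 and 141 CPM in plastic stripped and 209 and 202 in ACP stripped. ACP control replicate 1 lay far below replicate 2 and both plastic control libraries, and the interaction of 0.84 ± 0.33 did not pass (adjusted p = 0.473). FKBP5, a chaperone of steroid receptors that they induce, was at 187 and 162, 240 and 183, 63.8 and 82.5, and 62.4 and 84.4 CPM in the same order, with the stripped groups overlapping. Its interaction was -0.27 ± 0.32 (adjusted p = 0.863). HPGD, which inactivates prostaglandins, kept little on either surface (log2 change by stripping -4.08 ± 0.32 on plastic and -3.64 ± 0.29 on ACP), and so did the nicotinic receptor gene CHRNA2 (-5.37 ± 0.32 and -3.93 ± 0.30, interaction 1.44 ± 0.45, adjusted p = 0.316). Within the list the interaction thus ranged from several log2 units to values that did not pass.

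**Figure D3:**
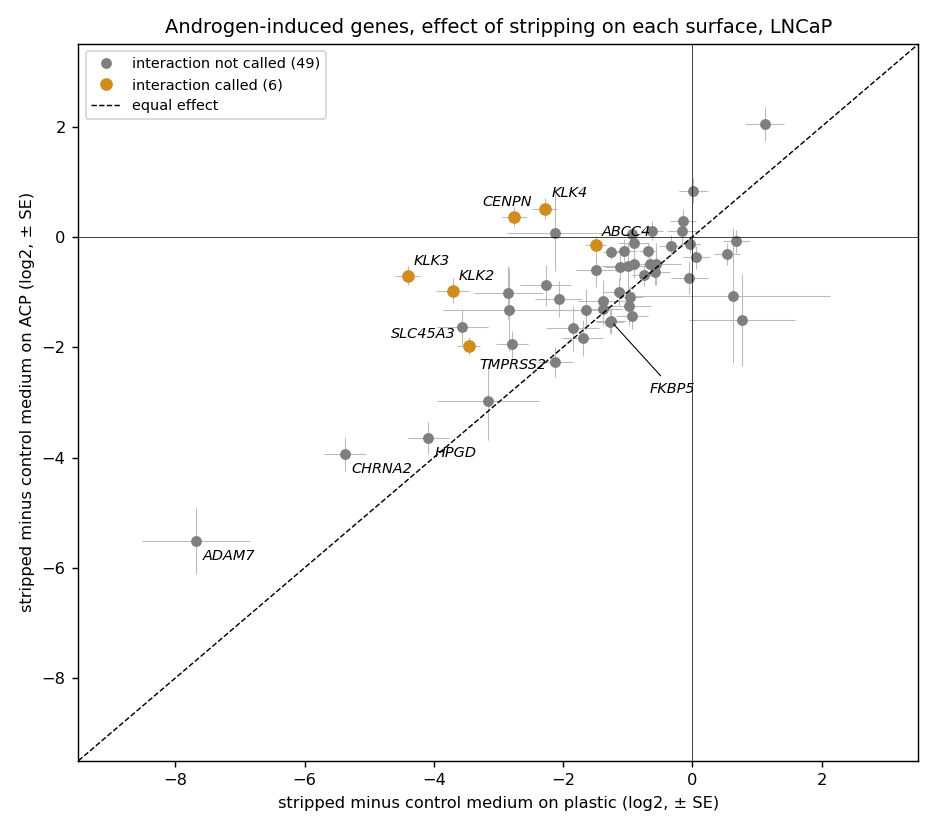
Log2 change from control to stripped medium on plastic (x axis) and on ACP (y axis), with standard errors, for the 55 androgen-induced genes tested in LNCaP. The 6 called genes lie above the line of equal effect, with KLK4 and CENPN just above 0 on ACP, while TMPRSS2, FKBP5 and HPGD lie nearer to it. CHRNA2 and ADAM7 also lie above it, with interactions that did not pass.

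In the second pattern the genes were highest on ACP in stripped serum and lower, though not always low, in the other 3 groups. All 20 were called higher by stripping on ACP (3.28% of all genes) and higher on ACP than plastic in stripped serum (4.32%). The choice of the pattern largely fixes both counts, so they describe it and add no evidence. The median log2 change by stripping was 2.36 on ACP and -0.55 on plastic, where 3 were called lower. None of the 20 was on the androgen-induced list. That list holds only 55 of the 14656 genes tested, so nothing is read from its absence among so few genes. Of the 20, 16 carried no plastic control mark, which 16.1% of all genes tested carry. The 20 include the NF-kappaB cofactor NFKBIZ, the urea cycle enzyme CPS1, the lysosomal ceramidase ASAH1, the guidance cue SEMA3C and long noncoding RNAs.

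DSCAM-AS1, a long noncoding RNA known from luminal breast cancers, had the largest interaction of these. It was at 0.767 and 0.611 CPM in plastic control, 0.593 and 1.81 in ACP control, 0.286 and 0.502 in plastic stripped, and 153.3 and 116.5 in ACP stripped. The first 6 libraries lay below 2 CPM and both ACP stripped libraries above 100. The interaction was 7.73 ± 0.76 (adjusted p = 0.00132), called without each library in turn. It stood on the list of androgen-repressed genes, yet it was at 251.3 and 132.4 CPM with androgen on ACP. DSCAM-AS1 is antisense to DSCAM, and without a stated use of strand its reads cannot be told from those of its partner. GAPLINC, another long noncoding RNA, was at 0.170 and 0.136, 0.237 and 0.118, 0.052 and 0, and 6.28 and 5.81 CPM. Its 334 reads in ACP stripped against 2 in plastic stripped give a ratio of 171 (exact 95% interval 46.8 to 1410, counting error only), and its fitted interaction of 7.07 ± 0.86 (adjusted p = 0.00469) depends on the prior count.

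NFKBIZ, an inducible nuclear cofactor of NF-kappaB, was at 2.56 and 2.47 CPM in plastic control, 1.23 and 2.24 in ACP control, 1.25 and 1.12 in plastic stripped, and 24.9 and 32.9 in ACP stripped. ACP was 24.1-fold above plastic in stripped serum, and the surface effect was not called in control medium. Its interaction was 5.13 ± 0.41 (adjusted p = 4.35e-04), and it stayed between 4.75 and 5.62 without any 1 library. With androgen on ACP it was at 7.31 and 7.24, below ACP stripped. BASP1, a membrane-bound protein of growing axons, was at 3.09 and 3.83, 0.989 and 5.04, 1.46 and 1.34, and 65.7 and 82.2 CPM, with an interaction of 5.90 ± 0.69 (adjusted p = 0.00462). SMOC1, a secreted calcium-binding matrix protein, was at 1.30 and 2.24, 0.158 and 0.472, 0.0781 and 0.391, and 5.79 and 5.16 CPM, with an interaction of 7.28 ± 0.91 (adjusted p = 0.00486). Both were called in every fit without a library but that without plastic stripped replicate 1 (adjusted p = 0.0666 in each).

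**Figure D4:**
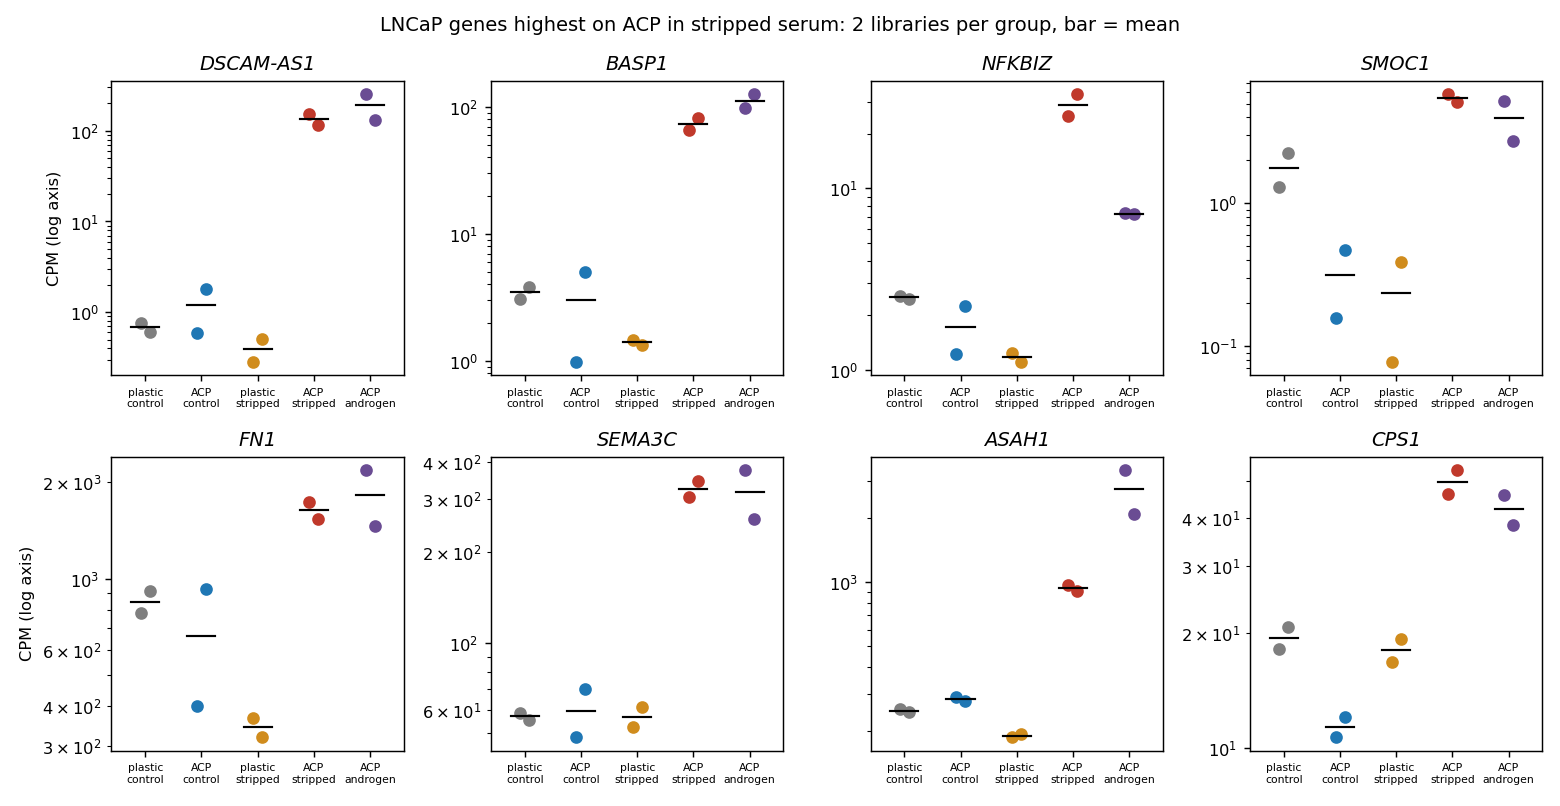
CPM (log axis) of 8 genes with ACP stripped highest, in each LNCaP library by group; points are libraries, bars the mean of 2. Both ACP stripped points lie above all 6 points of the plastic groups and ACP control in each panel, and the ACP androgen points lie above those 6 as well.

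Metabolic enzymes shared the pattern. ASAH1, which breaks down ceramide, was at 254 and 246 CPM in plastic control, 289 and 277 in ACP control, 187 and 194 in plastic stripped, and 975 and 912 in ACP stripped, with an interaction of 2.13 ± 0.27 (adjusted p = 0.00489), and reached 3359 and 2101 with androgen on ACP. Its call, and that of SEMA3C, was lost without plastic stripped replicate 1 alone. CPS1, the entry enzyme of the urea cycle, was at 18.1 and 20.7, 10.6 and 12, 16.8 and 19.3, and 46.3 and 53.5 CPM, with an interaction of 2.25 ± 0.25 (adjusted p = 0.00312). CPS1 is also on the liver list and carries the plastic control mark. It was called without each library in turn. Its interaction includes the surface effect in control medium, which was called lower on ACP (log2 -0.78 ± 0.18) and compares plastic control. The share of the mark in the CPS1 interaction was not tested.

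SEMA3C, a secreted guidance protein, was at 58.6 and 55.6, 48.5 and 70.3, 52.4 and 61.1, and 305 and 346 CPM, with an interaction of 2.46 ± 0.30 (adjusted p = 0.00469). FN1, fibronectin, was the 1 called gene of 25 tested integrins, laminins and their ligands (0.307% of all genes were called). It was at 779 and 912 CPM in plastic control, 401 and 928 in ACP control, 368 and 320 in plastic stripped, and 1736 and 1528 in ACP stripped, with an interaction of 2.59 ± 0.45 (adjusted p = 0.0383). The FN1 call was lost with a block for the replicate number and in 6 of the 8 fits without a library, and FN1 carries the plastic control mark. ANXA1, a calcium-dependent membrane binder, was at 1.26 and 2.24, 0.791 and 1.26, 0.625 and 1.23, and 5.14 and 7.26 CPM, with an interaction of 3.58 ± 0.60 (adjusted p = 0.034), and carries a mark in the low direction. The ANXA1 call was also lost in 6 of the 8 fits (adjusted p up to 0.227). Other members were FAR2P2, a pseudogene whose reads may come from its parent gene, DNAJC12, EPB41L3, BCAS1, LMO7, IYD, RTN4 and RANBP9, with interactions of 1.14 to 3.23. FAR2P2 was called in 7 and BCAS1 in 5 of the 8 fits without a library, and the others of these in 1 or 2. The LNCaP mean on ACP in stripped serum was set beside the means of the 12 groups of the other 3 lines. It lay above all of them in 10 of the 20 genes, DSCAM-AS1, GAPLINC, BASP1 and ASAH1 among them. The 20 were chosen with that LNCaP group highest, and the share over all genes was not computed, so nothing is read from the count. In the rest a group of another line lay higher, as for FN1, SMOC1, NFKBIZ and ANXA1.

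In the third pattern plastic control was the group apart. C3, a complement protein also made by liver, was at 3.86 and 3.26 CPM in plastic control and no higher than 0.229 CPM elsewhere, and it carries the mark. Its 325 reads there against 1 in ACP control give a ratio of 181 (exact 95% interval 32.2 to 7160, counting error only). RBMXL2, a germ cell RNA-binding gene without introns, was at 0.533 and 0.317 CPM in plastic control and at 2.52 to 11.0 in the others, with an interaction of -4.60 ± 0.79 (adjusted p = 0.037) that was lost with a replicate block and in the fit of all 34 libraries. LPAR3, a receptor of lysophosphatidic acid, was at 43.9 and 44.2 CPM in plastic control and at 10.4 to 29.1 in the others, with an interaction of 1.38 ± 0.23 (adjusted p = 0.034). It was called in 1 of the 8 fits without a library (adjusted p up to 0.201), and C3 and RBMXL2 in 2 each. The share of the plastic control libraries' foreign transcripts in these 3 interactions was not tested. Of all 45 genes, 7 carried a mark and 38 none, a share of marked genes near the 16.1% of all genes tested. In a fit without the plastic control libraries, 42 of the 44 higher genes were called higher on ACP in stripped serum (2.05% of the 14340 genes tested in that fit). Stripping on ACP was called higher in that fit for 23 of the 44 (2.2% of its genes) and lower for 3 (1.32%). The 44 were chosen by an interaction that holds both contrasts on the same libraries, so neither count tests them. That fit gives no interaction, since plastic control is part of it.

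Among genes repressed by androgen, 26 were tested and 1 was called, DSCAM-AS1 (0.307% of all genes were called), with a list median of -0.10. Stripping raised 10 of them on plastic and 11 on ACP (4.61% and 3.28% of all genes), 9 on both. REG4, a secreted lectin, was at 0.533 and 0.792 CPM in plastic control, 3.20 and 3.70 in ACP control, 1.51 and 1.23 in plastic stripped, and 765 and 623 in ACP stripped. That is the largest ratio of any gene named here between the surfaces in stripped serum, 494-fold, but the interaction of 6.57 ± 1.61 did not pass (adjusted p = 0.164). Its 2 libraries with androgen on ACP, 42.9 and 1.90 CPM, lay far apart and entered the spread. Their part in that result was not tested, and the REG4 value from the fit of the 8 libraries is not given. UGT2B17, which inactivates androgens by glucuronidation, rose by stripping on both surfaces (1.94 ± 0.27 on plastic and 1.82 ± 0.27 on ACP), with an interaction of -0.11 ± 0.37 (adjusted p = 0.968).

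Lists of cell growth and supply had no called gene. The 35 mitosis genes had a median interaction of -0.74, from -1.19 for CENPA to -0.25 for KIF4A, with 1 of them at an unadjusted p below 0.05, and the 36 DNA replication genes a median of -0.45 with 3 above 0 and 4 at that unadjusted p. None of the 71 passed by edgeR or DESeq2, and none was called for stripping on plastic. Of 30 genes of amino acid supply under ATF4, 24 were called lower by stripping on plastic and 16 on ACP. Over all genes those shares were 4.84% and 2.09%. The list had a median interaction of 0.32, no call by edgeR or DESeq2 and 7 at an unadjusted p below 0.05. DDIT3, a stress transcription factor of that list, fell by 1.54 ± 0.19 on plastic and by 0.67 ± 0.19 on ACP, with an interaction of 0.87 ± 0.27 (adjusted p = 0.314). The 26 genes of cholesterol synthesis and uptake and the 20 of fatty acid synthesis each had a median of 0.21 and no call by edgeR, with 2 and 0 by DESeq2 and 6 and 4 at an unadjusted p below 0.05. FOS led the 30 immediate early genes at 3.36 ± 0.99 (adjusted p = 0.274), none of them called by edgeR, 1 by DESeq2 and 7 at an unadjusted p below 0.05. The 15 tested liver transcripts had a median interaction of 4.07, all above 0, with CPS1 alone called and 9 at an unadjusted p below 0.05, beside their presence in plastic control given above. In control medium 14 of them were called lower on ACP (5.85% of all genes), with a median of -4.39. Stripping was called lower on plastic for 12 (4.84% of all genes). Between the surfaces in stripped serum their median was 0.38. The share of the plastic control libraries in these interactions was not tested.

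VCaP, a line from a bone metastasis, is the other line with all 4 groups, although its plastic stripped group is 1 library, assumed here to vary like the other groups. Its own interaction was called for 0 of 17323 genes by edgeR in the fit of all 34 libraries, with 662 at an unadjusted p below 0.05. The difference of the interactions, LNCaP minus VCaP, was called for 8 genes (0.0462%), all higher in LNCaP. The 8 were BASP1, S100P, CD55, NFKBIZ, SEMA3C, CENPN, ANKH and BMPR1B, each of them also called in LNCaP alone. NFKBIZ had an interaction of 5.18 ± 0.43 in LNCaP and 0.23 ± 0.42 in VCaP in this fit, where the 7 VCaP libraries ranged from 6.53 to 10.8 CPM. CD55 had 5.78 ± 0.51 and -0.11 ± 0.50, and CENPN 3.19 ± 0.33 and 0.08 ± 0.37. CENPN nevertheless fell by stripping in VCaP on both surfaces, from means of 64.8 to 19.2 CPM on plastic and of 81.9 to 25.6 on ACP. For KLK3 the difference of 3.18 ± 1.08 did not pass (adjusted p = 0.855), and for KLK4 it was 2.91 ± 0.80 (adjusted p = 0.518), so a difference between the lines in the kallikreins was not shown. The calls for CD55, NFKBIZ and CENPN held in all 18 other settings run, and those of the other 5 were lost in 6 to 12 of them.

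**Figure D5:**
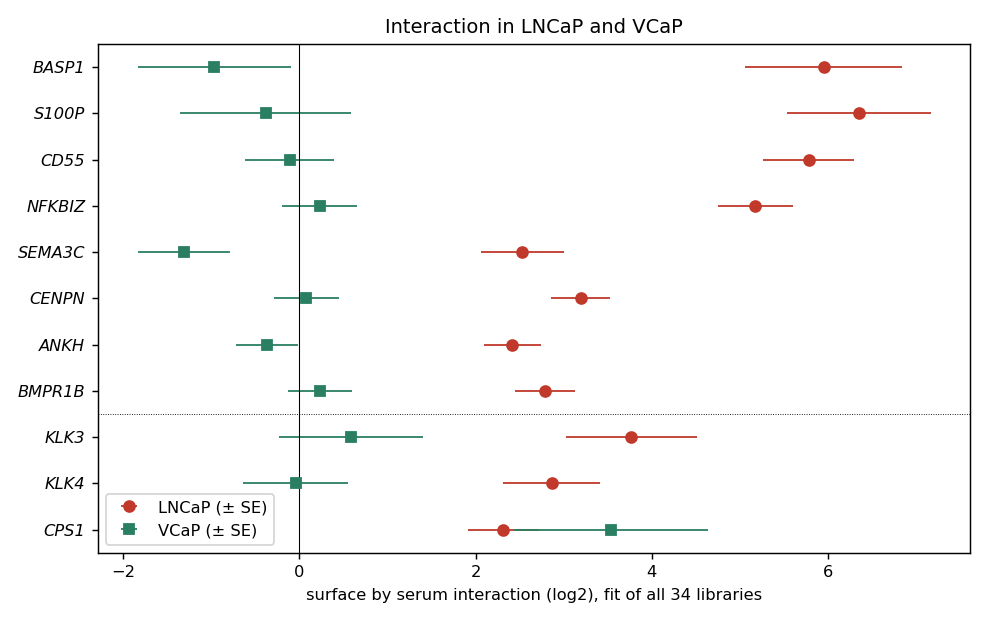
Surface by serum interaction (log2, with standard error) in LNCaP (circles) and VCaP (squares) from the fit of all 34 libraries, for the 8 genes whose difference between lines was called (above the dotted line) and for KLK3, KLK4 and CPS1, not called. VCaP values of the 8 lie between -1.31 and 0.24, and LNCaP values between 2.42 and 6.35.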

How the data were processed

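RNA from 4 prostate lines was measured in 34 libraries with poly(A) selection, per the labels' protocols. The deposited table holds the authors' whole-number read counts per gene symbol, not normalized, for 26336 genes. STAR, HTSeq and hg19 are named in the submitters' processing notes without versions. Strand handling and annotation: not given in the sources used here. Depth was 17.1 M to 44.8 M counts in the 8 libraries of the interaction, and 4335 genes had 0 reads in every library.

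The 10 LNCaP libraries (5 groups of 2) were fitted together with edgeR 4.0.16 in R 4.3.3 (TMM, filterByExpr with a minimum count of 10, quasi-likelihood F test, 5 residual degrees of freedom, common biological coefficient of variation 16.8%), leaving 14656 genes. Adjusted p-values are Benjamini-Hochberg over all genes, with 0.05 as threshold. Standard errors are the log2 value over the square root of F. The difference between lines used all 34 libraries (17323 genes, 17 residual degrees of freedom). Replicates correlated at 0.976 to 0.994 across genes and differed by more than sampling noise (chi-square per gene 8.6 to 46.6). Simulated counts, 200 genes changed, tested the steps: log2 changes of 1, 2 and 3 ran on 14568, 14542 and 14563 genes, and at 2 there were 16 unchanged genes among 171 calls.

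The members, gene lists and tests were chosen with earlier results of these data known. Genes named by rule were the 8 largest called changes in each direction at a mean of at least 5 CPM without the plastic control mark, KLK3, KLK2, TMPRSS2 and FKBP5, up to 3 called genes per list, up to 3 marked called genes per direction, and 2 per direction in the difference between lines. All further genes were picked with their values in view. Levels in other lines are CPM of the library total. Limits for 0 reads took 3 reads per group. Alternatives were RLE factors, no count filter, a replicate block, fits of 8 or all libraries, DESeq2 1.42.0, a minimum log2 change of 1, removal of marked genes and leaving out each library; a fit without plastic control was added after seeing the data. 3 called genes are not reported by name.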

Additional observations from a re-analysis of the deposited data

Results flagged for a closer look

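The surface by serum interaction differed between LNCaP and VCaP by a test of the difference itself in 8 genes (edgeR, fit of all 34 libraries, VCaP plastic stripped with 1 library). LNCaP minus VCaP was 6.92 for BASP1 (adjusted p = 0.0294), 6.73 for S100P (adjusted p = 0.0375), 5.89 for CD55 (adjusted p = 1.12e-04) and 4.95 for NFKBIZ (adjusted p = 1.12e-04). It was 3.84 for SEMA3C (adjusted p = 0.0332), 3.11 for CENPN (adjusted p = 0.00723), 2.79 for ANKH (adjusted p = 0.0171) and 2.56 for BMPR1B (adjusted p = 0.0494).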

How the results depend on the processing

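All 45 interactions kept their sign in every setting run, and the 45 were called again with RLE factors (48 calls), in the fit of the 8 libraries (78), without the count filter (338; 258 higher, 80 lower) and with DESeq2 (201; 175 higher, 26 lower). The fit of all 34 libraries gave 73 calls, 38 of them shared. Without 1 library the count ran from 11 (without plastic stripped replicate 1) to 148 (without ACP control replicate 2), with 25 when plastic control replicate 1 was left out, 29 for plastic stripped replicate 2, and 27 and 23 for ACP stripped replicates 1 and 2. The 9 genes lost in at least 1 setting other than a left-out library include KLK2, FN1, SLC45A3, RBMXL2, ANK1, EPB41L3, IYD and SDR9C7. The 11 genes called without each library were DSCAM-AS1, GAPLINC, CD55, NFKBIZ, TARP, KLK3, CENPN, KLK4, CPS1, ENTPD5 and GALNT7.

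The replicate numbers did not pair the libraries (correlation of deviations -0.18 to 0.25 over 6 pairs of groups). A replicate block gave 51 calls, 49 higher and 2 lower, with 42 shared. It took the difference between lines from 8 to 3.

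Calls for the ACP effect in stripped serum, 897, were 1827 without the filter, 1733 with DESeq2, 342 in the fit of all libraries, 372 without plastic control and 66 to 1278 without 1 library. Those for the ACP effect in control medium, 1845, were 2933 without the filter, 647 in the fit of all libraries and 0 to 2385 without 1 library, the 0 arising without either plastic control library (2538 and 2836 at an unadjusted p below 0.05). The stripping effect on plastic, 1385, gave 2193 without the filter and 310 to 1717 without 1 library. The stripping effect on ACP, 787, gave 1732 without the filter, 1307 with DESeq2, 504 without plastic control and 191 to 924 without 1 library. The interaction difference between lines was 24 without the filter, 26 with DESeq2 and 3 to 37 without 1 library, highest without VCaP plastic control replicate 2. Causes were not tested. A lone library left in a group is assumed to vary like the others.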
